A study of Mus musculus with 6 samples.

Results

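Expression of 10 genes that are commonly listed as transcriptional targets of p53 was examined in 4T1 mouse mammary carcinoma cells after co-culture with polarised macrophages. The 10 genes, out of 23385 measured, were Cdkn1a, Mdm2, Ccng1, Trp53inp1, Sesn1, Zmat3, Phlda3, Btg2, Ephx1 and Plk2. They were chosen by name, with earlier results of these data known, so counts over the 10 are a description. A gene was represented by the transcript cluster, a probe set that reads a whole gene, which the deposited table annotates to that symbol alone, and each of the 10 had 1 such cluster. Ephx1 entered the list with its value in these data already known, so its difference is a description here.

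On 3 arrays the 4T1 cells had been kept for 24 h with pro-inflammatory (PI) macrophages, and on the 3 arrays they were set against, for 24 h with anti-inflammatory (AI) macrophages. The macrophages were derived from mouse bone marrow, each replicate from an individual mouse, while 4T1 is a single cell line labelled triple negative, for HER, PR (progesterone receptor) and ER (oestrogen receptor). CD11b-labelled macrophages were depleted on a column, and RNA came from the tumour fraction that flowed through. 4T1 cells cultured alone are not analysed here, so a difference cannot be assigned to the PI or to the AI co-culture.

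The transcription factor p53 is held at a low level by the ubiquitin ligase Mdm2, is stabilised by DNA damage and other stresses, and then induces genes that stop the cell cycle, repair DNA, limit growth signalling or promote cell death. Several of its targets, Mdm2 among them, feed back on p53 itself. 4T1 cells have been described as lacking functional p53, and many of these genes are also transcribed under other factors, so the name of the group refers to what is known from other cells. The p53 protein was not measured here.

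The p53 binding element is built from copies of a consensus decamer, which was searched for on both strands in the RefSeq promoter windows of assembly GRCm38.p6, each running from 250 bases before to 50 bases after an annotated start. Of the 10 genes, 8 had a window in that table, and Trp53inp1 and Zmat3 had none. Among the 10 windows of these 8 genes, 4 held the decamer, against 8.36% of all 32851 windows. The 4 belonged to Cdkn1a, Mdm2, Ccng1 and Sesn1. The windows of Cdkn1a, Mdm2 and Ccng1 are shown because these 3 are among the best known targets and their windows hold the decamer, and that of Ephx1 because this gene had the largest difference and no match. Capitals mark the decamer, and each sequence runs 5′ to 3′ on the strand of the gene.
Cdkn1a, chr17:29090729-29091028, plus strand: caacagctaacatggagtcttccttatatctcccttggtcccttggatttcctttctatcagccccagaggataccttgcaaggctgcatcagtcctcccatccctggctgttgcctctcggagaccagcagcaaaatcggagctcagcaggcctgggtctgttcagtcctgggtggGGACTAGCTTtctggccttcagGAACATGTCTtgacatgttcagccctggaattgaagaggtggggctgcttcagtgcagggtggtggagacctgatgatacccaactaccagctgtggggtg
Mdm2, chr10:117710709-117711008, minus strand: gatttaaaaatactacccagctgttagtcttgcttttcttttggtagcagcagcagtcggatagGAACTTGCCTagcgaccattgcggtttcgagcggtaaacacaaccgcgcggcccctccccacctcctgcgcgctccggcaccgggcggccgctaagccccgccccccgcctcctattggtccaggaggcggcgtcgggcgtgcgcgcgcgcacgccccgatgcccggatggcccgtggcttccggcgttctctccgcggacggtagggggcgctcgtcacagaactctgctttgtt
Ccng1, chr11:40755237-40755536, minus strand: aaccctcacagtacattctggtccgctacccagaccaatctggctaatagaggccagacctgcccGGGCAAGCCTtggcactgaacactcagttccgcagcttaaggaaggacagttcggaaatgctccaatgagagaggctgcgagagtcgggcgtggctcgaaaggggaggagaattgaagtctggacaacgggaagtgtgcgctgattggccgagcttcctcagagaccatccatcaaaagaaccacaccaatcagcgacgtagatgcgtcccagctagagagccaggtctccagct
Ephx1, chr1:181017520-181017819, minus strand: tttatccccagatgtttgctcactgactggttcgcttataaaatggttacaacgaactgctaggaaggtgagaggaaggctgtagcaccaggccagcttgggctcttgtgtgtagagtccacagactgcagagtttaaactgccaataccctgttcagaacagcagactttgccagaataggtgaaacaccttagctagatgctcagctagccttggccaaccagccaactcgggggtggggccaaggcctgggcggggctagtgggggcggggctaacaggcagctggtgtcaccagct

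The Cdkn1a window holds 2 decamers, which begin 73 and 51 bases before the start and are 12 bases apart. This start is the first of 2 annotated for Cdkn1a, and the window of the second held no match. In Mdm2 and Ccng1 the decamer begins 186 and 185 bases before the start. A match describes the letters only, and was counted where all letters fit RRRCWWGYYY (R is A or G, W is A or T, Y is C or T). Near matches were not marked, such as the stretch directly after the second decamer of Cdkn1a. A window without a match says nothing of sites elsewhere in a gene.

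A linear model with moderated variances (limma), fitted to all genes at a threshold of 0.05 on the adjusted p, called 0 of the 10, against 0.0727% of all genes. Differences are PI minus AI on the log2 scale of the deposited expression values. At an unadjusted p under 0.05 limma gave 1 of the 10, Ephx1, against 7.36% of all genes. An unmoderated test called 0 of the 10 after adjustment. The differences ran from -0.50 for Ephx1 to 0.24 for Trp53inp1, with a median of -0.12, beside -0.01 over all genes. All 10 were among the 11692 genes above the median mean level. Over those genes the median was -0.03, and the 3 PI arrays lay wholly below the 3 AI arrays for 10.7%. Of the 10 differences, 9 were below 0, as were 52.7% of those of all genes. The 3 PI arrays lay wholly below the 3 AI arrays for 3 of the 10, Ephx1, Plk2 and Zmat3, against 7.32% of all genes, and wholly above them for 0 of the 10, against 5.85%. The PI arrays lay wholly below for 1 of the 10, Ephx1, after quantile normalisation (6.28% of all genes) and after cyclic loess (6.0%), and for the same 3 of the 10 after each array was centred on its median (12.2%).

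**Figure D1:**
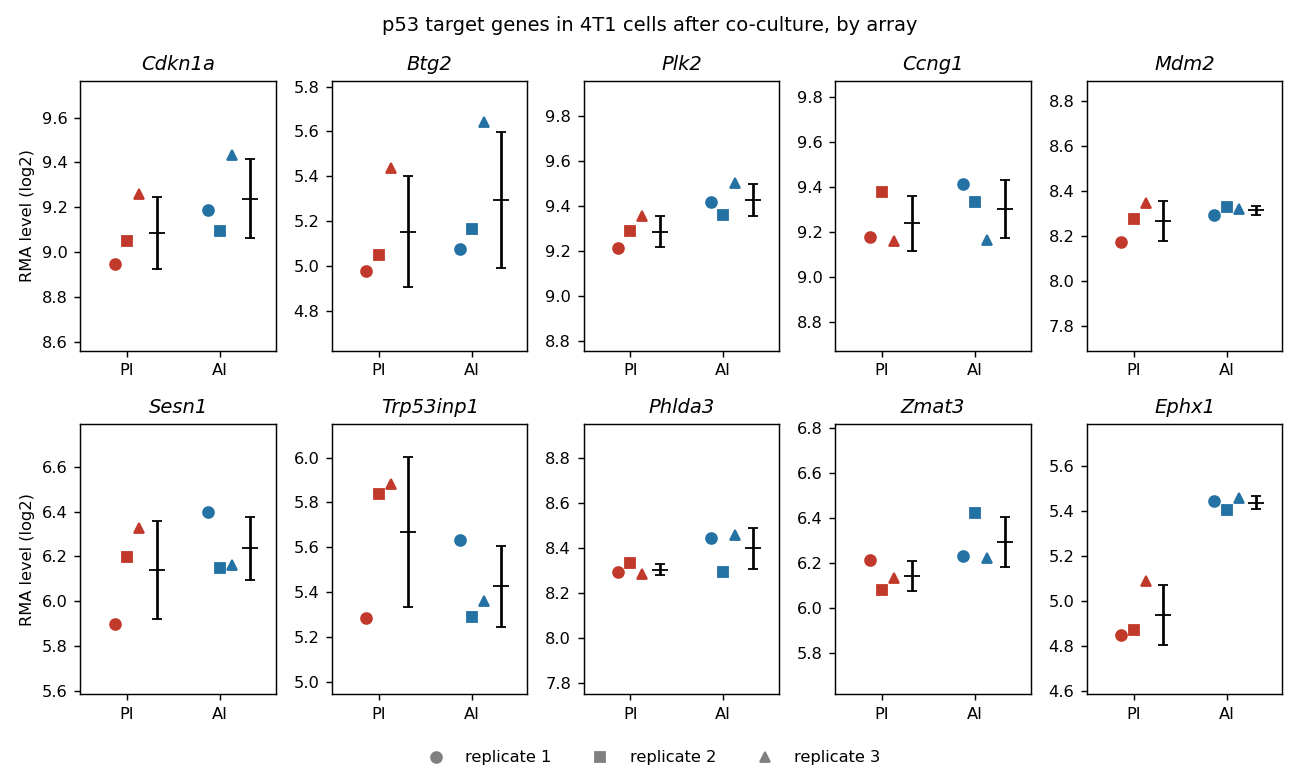
Expression level of each p53 target gene in each array, as the deposited log2 value, with PI arrays in red on the left and AI arrays in blue on the right. Shapes mark the replicate number, the black bar and whiskers give the mean ± SD of 3 arrays, every panel spans the same range, and the groups stand apart by 0.32 for Ephx1.

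Among the genes that act on the cell cycle, Cdkn1a encodes p21, the inhibitor of cyclin-dependent kinases through which p53 arrests cells (transcript cluster 17335467, Entrez 12575, chromosome 17). Its level was 8.95, 9.05 and 9.26 in the PI arrays and 9.19, 9.09 and 9.43 in the AI arrays. The ranges overlapped, since the highest PI array stood above the lower AI arrays. The means were 9.09 ± 0.16 in PI and 9.24 ± 0.18 in AI (SD, n = 3 each), a difference of -0.15 (95% interval -0.44 to 0.13, limma adjusted p = 0.824).

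Btg2, an antiproliferative factor that works with the mRNA deadenylation machinery, had levels of 4.98, 5.05 and 5.44 in PI and 5.08, 5.17 and 5.64 in AI. In both groups replicate 3 was the highest and the spread within a group was larger than the difference between groups. That difference was -0.14 (interval -0.56 to 0.28, limma adjusted p = 0.887). Without AI replicate 3 it changed sign to 0.03.

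Plk2, a polo-like kinase involved in centriole duplication, had levels of 9.22, 9.29 and 9.36 in PI and 9.42, 9.36 and 9.50 in AI. All PI values lay under all AI values, but the gap between the highest PI and the lowest AI array was 0.0027. The difference of -0.14 had an interval of -0.33 to 0.05 (limma adjusted p = 0.752). The groups overlapped after quantile normalisation and after cyclic loess.

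Ccng1 encodes cyclin G1, which recruits a phosphatase to Mdm2. It had levels of 9.18, 9.38 and 9.16 in PI against 9.42, 9.34 and 9.16 in AI. Each group held high and low arrays, and the ranges nearly coincided. The difference was -0.06 (interval -0.30 to 0.17, limma adjusted p = 0.913).

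Mdm2, the ubiquitin ligase that degrades p53 and is itself induced by it, had levels of 8.17, 8.28 and 8.35 in the PI arrays, and 8.29, 8.33 and 8.32 in the AI arrays. The AI arrays lay within the span of the PI arrays. Its difference of -0.05 was the smallest of the 10 in size (interval -0.24 to 0.14, limma adjusted p = 0.917). This interval is a PI over AI ratio of 0.849 to 1.10. Without PI replicate 1 the difference was -0.0021.

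Sesn1 and Trp53inp1 belong to the stress response. Sesn1, a sestrin that restrains mTORC1 signalling and oxidative damage, had 5.90, 6.20 and 6.32 in PI and 6.40, 6.15 and 6.16 in AI. The single low value was PI replicate 1, and without that array the difference changed sign, to 0.03 from the -0.10 of all 6 arrays (95% interval -0.40 to 0.21, limma adjusted p = 0.898).

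Trp53inp1, which promotes p53 phosphorylation and autophagy, was the exception in sign. Its levels were 5.29, 5.84 and 5.88 in PI, against 5.63, 5.29 and 5.36 in AI. Of the PI arrays, 2 lay above every AI array and replicate 1 lay below them all. The difference was 0.24 (interval -0.16 to 0.65, limma adjusted p = 0.799). Without PI replicate 1 it was 0.43 (limma unadjusted p = 0.0118, limma adjusted p = 0.687). The PI arrays then lay wholly above the AI arrays, as for 10.3% of all genes in that setting. Leaving out the array that goes against the sign raises the difference by construction. With any other single array left out the difference was 0.13 to 0.34.

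Phlda3, a pleckstrin-homology protein that competes with Akt for membrane lipids, had 8.29, 8.33 and 8.29 in PI and 8.45, 8.29 and 8.46 in AI. AI replicate 2 stood among the PI arrays while the other AI arrays were higher. The difference was -0.09 (interval -0.28 to 0.09, limma adjusted p = 0.834).

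Zmat3, a zinc-finger RNA-binding protein that affects splicing and mRNA stability, had 6.21, 6.08 and 6.13 in PI and 6.23, 6.42 and 6.22 in AI. The PI arrays were lower, with a gap of 0.011 that closed after quantile normalisation and after cyclic loess. Its difference was -0.15 (interval -0.36 to 0.06, limma adjusted p = 0.752). A further cluster annotated to both Zmat3 and 4930429B21Rik had means of 4.19 in PI and 4.27 in AI, and its signal cannot be assigned to either gene.

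Ephx1 encodes microsomal epoxide hydrolase, an enzyme of the endoplasmic reticulum that opens reactive epoxides of drugs and pollutants. It is known as a xenobiotic-responsive gene as well as a member of p53 signatures (cluster 17230484, Entrez 13849, chromosome 1). Its level was 4.85, 4.87 and 5.09 in the PI arrays, against 5.45, 5.41 and 5.46 in the AI arrays. The groups were separated by 0.32, more than the spread within the PI arrays (0.24) or the AI arrays (0.05). The means were 4.94 ± 0.13 in PI and 5.44 ± 0.03 in AI (SD, n = 3 each). The difference of -0.50 had an interval of -0.71 to -0.29, or a PI over AI ratio of 0.706 with an interval of 0.610 to 0.818.

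For Ephx1 the unadjusted p was 6.76e-04 and the adjusted p was 0.256 in limma, so it did not pass over all genes. It stayed between -0.58 and -0.46 when single arrays were left out, and its groups were apart after each of 3 rescalings. Leaving out an array cannot make groups overlap that are apart in all 6, so those settings do not test the separation. The adjusted p of Ephx1 ranged from 0.0754, among genes above the median level, to 0.573, without AI replicate 3. The authors' deposited table gave it a fold of 1.42 as AI over PI, with p = 0.00309 and q = 0.581. Over the 6 arrays the patterns most like that of Ephx1 were those of BC024386, Atp5d and Ubp1, with Pearson's r of 0.997, 0.993 and 0.992. These values share the 6 arrays and the split into groups, 289 genes had r above 0.9, and none of the 3 passed the test.

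**Figure D2:**
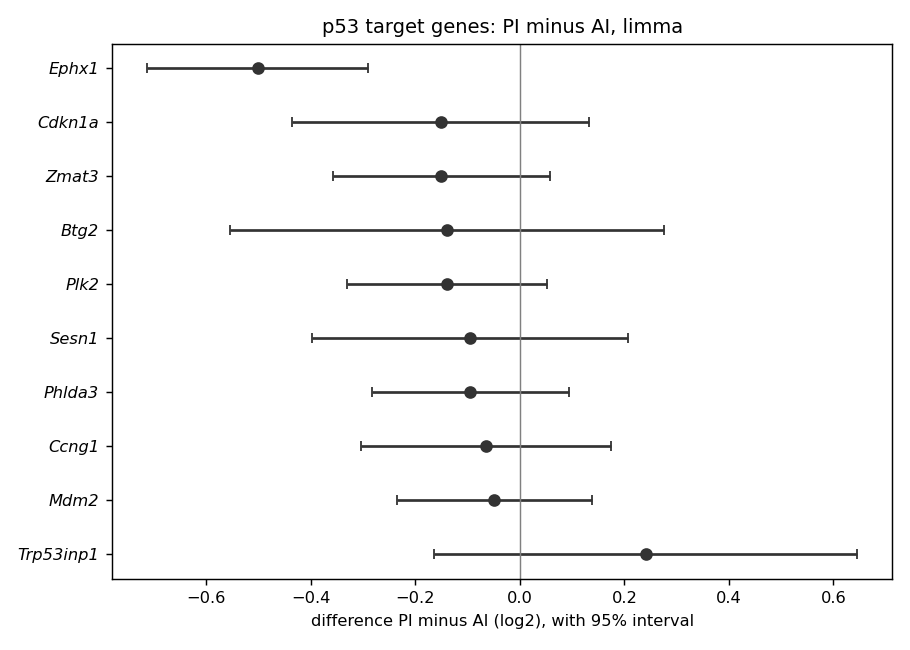
Difference between PI and AI for each p53 target gene, in log2 units, with the 95% interval of the limma fit as a horizontal bar and genes ordered by difference. The interval of Ephx1 lies between -0.71 and -0.29, and the intervals of the other 9 genes include 0.

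The array PI replicate 1 gave the lowest of the 6 values for 7 of the 10 genes, while it was the lowest for 20.6% of all genes. Deviations of the 10 genes from their own mean over the 6 arrays had medians of -0.18, -0.04 and 0.03 in PI replicates 1, 2 and 3, against 0.07, -0.02 and 0.07 in AI replicates 1, 2 and 3. Over all genes these medians lay between -0.01 and 0.01 in every array. The groups therefore overlapped on this summary, with PI replicate 3 above AI replicate 2. Without PI replicate 1 the median difference of the 10 genes was -0.07 instead of -0.12, and 8 of 10 were below 0. AI replicate 3 was the highest array for 5 of the 10 genes and for 17.0% of all genes, and without it the median difference was -0.08.

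**Figure D3:**
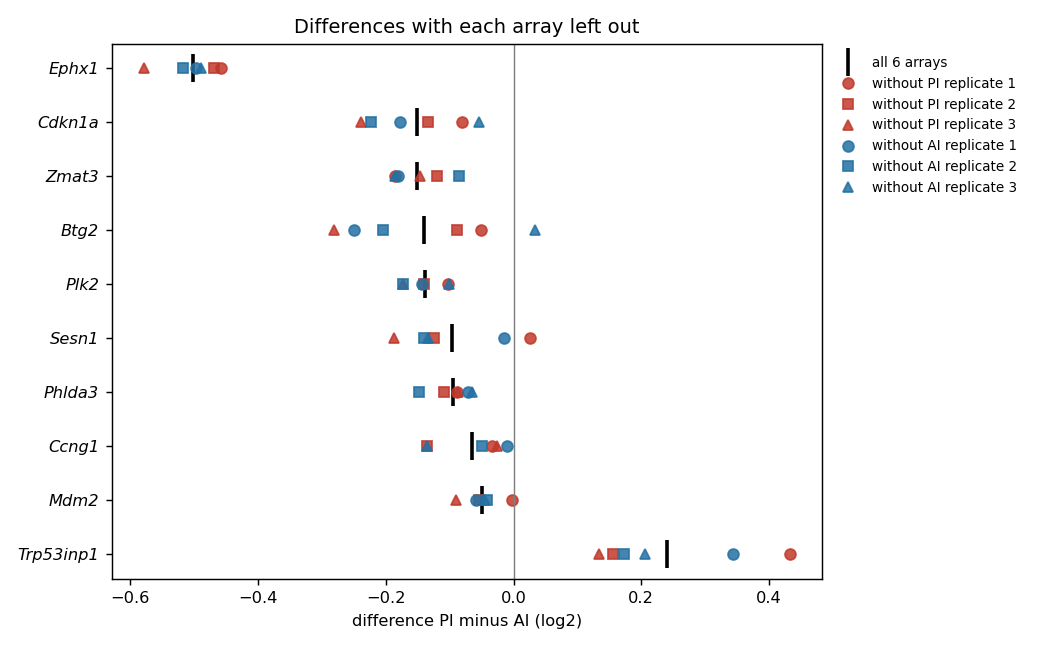
Difference between PI and AI in log2 units for each p53 target gene with all 6 arrays (black bar) and with each array left out in turn (red for a PI array, blue for an AI array, shape for the replicate number). Btg2 and Sesn1 cross 0 in 1 setting each, and Trp53inp1 ranges from 0.13 to 0.43.

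Beyond these 10, 4 written lists of other p53 targets held 41 genes, of which 39 were measured on a cluster of their own. None of the 39 passed in limma, and 2 had an unadjusted p under 0.05, against 7.36% of all genes. Their median difference was -0.03, with 27 below 0 and 12 above. The split was 20 to 19 after quantile normalisation or cyclic loess and 30 to 9 after centring of arrays. After centring the median of these 39 genes was -0.07, beside -0.05 over all genes. The PI arrays lay wholly below the AI arrays for 5 of the 39 and wholly above for 1. Over all genes these shares were 7.32% and 5.85%, and 52.7% of the differences as deposited were below 0. The same shares of all genes are the comparison for the counts as deposited of the lists that follow, and not for rescaled counts. The median difference of all genes was -0.01 as deposited, -0.0048 after quantile normalisation, -4.3e-04 after cyclic loess and -0.05 after centring of arrays. Centring thus moved the differences of all genes down, and the shares of all genes below 0 after rescaling are not given here.

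The gene with the smallest p among them was Sfn, which encodes 14-3-3 sigma, a protein that holds cell cycle kinases in the cytoplasm. Its levels were 6.56, 6.62 and 6.80 in PI, against 6.24, 6.19 and 6.01 in AI, with no overlap and the opposite sign to Ephx1. The difference was 0.52 (interval 0.28 to 0.75, limma adjusted p = 0.333). In the same list of 7 measured cell cycle and growth genes, Ccng2, an atypical cyclin, had a difference of 0.19 and Gtse1, a microtubule protein that binds p53, of -0.06.

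Among 14 apoptosis genes, 10 were below 0, against 7 after quantile normalisation or cyclic loess and 10 after centring of arrays. Perp, a membrane protein of desmosomes, had 6.01, 5.98 and 6.02 in PI and 6.27, 6.58 and 6.09 in AI, a difference of -0.31 (interval -0.60 to -0.02, limma adjusted p = 0.662). Values for Cdip1 and the death receptor Tnfrsf10b were -0.26 and -0.13. The apoptosis effectors Bax and Bbc3 (Puma) had differences of -0.02 and -0.04, and Pmaip1 (Noxa) of 0.29, with Fas at 0.05. These 4 were named after their values were seen.

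DNA repair and nucleotide genes had a median of -0.08 over 6 members, with -0.17 for the translesion polymerase Polh, -0.14 for the damage sensor Xpc and -0.10 for Rrm2b, a ribonucleotide reductase subunit. Over 12 genes of metabolism and secretion the median was -0.02. Gls2, a mitochondrial glutaminase, had a difference of -0.26 and the lipase Abhd4 of -0.20. None of these passed in limma.

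**Figure D4:**
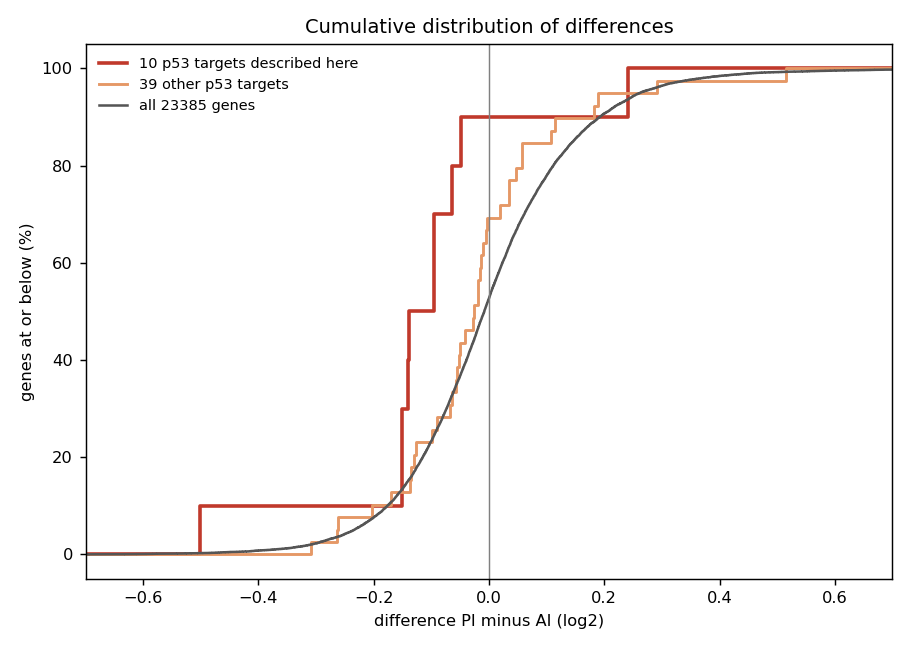
Cumulative share of genes, in percent, at or below each difference PI minus AI in log2 units, for the 10 p53 targets, 39 other p53 targets and all 23385 genes. At 0 the curve of the 10 genes has taken in 9 of them and that of the other targets 27 of 39, against 52.7% of all genes.

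The transcript of p53 itself, Trp53, had levels of 8.11, 7.86 and 7.98 in PI and 8.02, 8.21 and 7.80 in AI. The groups overlapped, with a difference of -0.03 (interval -0.31 to 0.26, limma adjusted p = 0.978). The array value does not show whether the transcript gives a working protein. Mdm4, the partner of Mdm2 that masks p53, had a difference of -0.04, and Cdkn2a, whose Arf product inhibits Mdm2, of 0.05.

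Of the p53 relatives, Trp73 had 4.03, 4.14 and 4.24 in PI and 4.30, 4.40 and 4.35 in AI. Its groups did not overlap, with a difference of -0.22 (interval -0.42 to -0.01, limma adjusted p = 0.662). Trp63 had a value of -0.14 and the checkpoint kinase Chek2 of -0.17. Of 15 family members and regulators, 0 passed in limma and 1 had an unadjusted p under 0.05. In that list 11 were below 0, against 7 after quantile normalisation, 5 after cyclic loess and 14 after centring of arrays.

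Cell cycle genes that are repressed through p21 and the DREAM complex, 11 measured, had a median of -0.06, and 0 passed in limma, with 0 at an unadjusted p under 0.05. The mitotic kinase Aurkb had a difference of -0.15, the anaphase activator Cdc20 of -0.11 and the survivin gene Birc5 of -0.10. The counts below 0 were 9 of 11 as deposited, 6 of 11 after quantile normalisation or cyclic loess and 10 of 11 after centring of arrays.

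Ephx1 is also listed with genes of epoxide hydrolysis and of the antioxidant factor NRF2. Of 15 other such genes 13 had differences above 0, as had 11069 of all 23385 genes. The count above 0 was 12 of 15 after each rescaling. Ephx1 had the opposite sign, and its relation to these genes was not tested. The median of the 15 was 0.09, and 0 passed in limma. At an unadjusted p under 0.05, against 7.36% of all genes, there were 3. Those were the cystine transporter Slc7a11, with 9.33, 9.36 and 9.31 in PI and 9.01, 8.82 and 9.24 in AI (0.31), the glutathione transferase Gstm1 (0.25) and the quinone reductase Nqo1 (0.21). Ephx2, the soluble epoxide hydrolase, had a value of 0.17 and was named after its value was seen.

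In a mixed fraction, fewer cells of a type and less RNA per cell cannot be told apart. Of 20 macrophage markers, 0 passed in limma and 3 had an unadjusted p under 0.05, Mpeg1 at 0.58, Cd14 at -0.23 and Spi1 at -0.21. Their mean log2 level per array was 4.19 to 4.27 in PI and 4.17 to 4.25 in AI. Itgam, the gene of the CD11b antigen used for depletion, had levels of 2.92 to 3.07 in PI and 2.85 to 3.12 in AI, with differences of 0.00 for Adgre1 and -0.10 for Csf1r.

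Among epithelial markers, Krt18 had levels of 10.77 to 10.97 in PI and 10.86 to 11.26 in AI, and the mean log2 level of the list was 6.76 to 6.83 in PI against 6.79 to 6.96 in AI. In that list of 8 genes 0 passed in limma and 0 had an unadjusted p under 0.05. Of the 8 differences 5 were below 0, with values of -0.19 for Epcam, -0.22 for Krt18 and -0.16 for Cdh1. The 3 above 0 were Krt19 at 0.06, Cldn7 at 0.05 and Cldn4 at 0.00. The median of the list was -0.14, beside -0.12 for the 10 p53 targets, and its part in the value of the p53 targets was not tested. The receptor genes absent by label had differences of 0.21 for Esr1, 0.11 for Pgr and -0.16 for Erbb2, none past the test. Levels of separate probe sets cannot be set against each other, so no receptor was called absent from its level.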

How the data were processed

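RNA of the 4T1 fraction was measured on 6 Affymetrix arrays. The deposited values are log2 expression levels per transcript cluster, made with Affymetrix Expression Console and RMA per the submitters' processing notes, with versions, build and array annotation not given in the sources used here. Per the file headers, the authors also deposited a p-value, a q-value and a fold ratio for each cluster. For all 41345 clusters that fold was, within 1e-04, the ratio of AI over PI that the log2 means give. The 2 deposited tables held the same values, with 0 differences and 0 unused sample columns.

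Clusters with 1 symbol (24724) were kept, symbols were updated by Entrez identifier with a RefSeq table of GRCm38.p6, and the cluster with the highest mean stood for each of 23385 genes. PI was compared with AI with limma 3.58.1 in R 4.3.3 (lmFit, eBayes, two-sided, Benjamini-Hochberg over all genes, threshold 0.05), with no filter on dim genes. Other steps used Python 3.11.15. The fit was also run on simulated data with planted differences. The share of these that it recovered is not reported here, so that run says nothing of the power for the differences above. The number of arrays limits the precision, and the median standard error of a difference was 0.106.

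The genes and lists were chosen with earlier results of these data known. All 10 genes, Trp53, Mdm4, Trp63, Trp73, Cdkn2a, 3 receptors and 3 macrophage genes were named, with up to 3 genes of smallest p from each other list. In 12 lists, 134 of 138 genes were measured. No label says that equal replicate numbers share a mouse, so the numbers were not taken to pair the arrays. Deviations of same-numbered arrays correlated at 0.041, 0.006 and 0.057, and those of differently numbered arrays at -0.075 to 0.038. These correlations do not settle whether the arrays are paired.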

Additional observations from a re-analysis of the deposited data

How the results depend on the processing

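None of the 10 genes and none of the 39 other p53 targets passed under any of 16 alternatives in which they were tested. The threshold was an adjusted p of 0.05, except in 1 alternative that used 0.1 with the reported settings. Another alternative was the unmoderated test. Among genes above the median level the limma adjusted p of Ephx1 was 0.0754. Bbc3, Pmaip1, Eda2r, Mgmt and Gdf15, of the 39, lay below that level and were not tested there. The median difference of the 10 genes was -0.16 to -0.09 under other scalings and -0.16 to -0.07 with single arrays left out. Among the scalings, -0.16 came from centring of arrays, where the median of all genes was -0.05, beside -0.01 as deposited. The count of the 10 genes whose groups did not overlap, 3 in all, was 1 after quantile normalisation and 1 after cyclic loess (Ephx1 in both). It was 3 to 6 with single arrays left out, which compares fewer arrays and by construction cannot lower the count. In either direction, 13.2% of all genes did not overlap with all arrays, 12.2% and 12.4% after these rescalings, and 22.0% to 24.5% with single arrays left out. The sign changed for Btg2 without AI replicate 3 (0.033, range -0.28 to 0.033) and for Sesn1 without PI replicate 1 (0.025, range -0.19 to 0.025). The count over all genes, 17, was 42 among genes above the median level, 76 with an intensity trend and robust variance, 2 in an unmoderated test, 8 with all clusters tested, 42 at an adjusted p of 0.1 and 1 to 14 with single arrays left out. With the replicate number as a block (replicate block) 1 gene passed over all genes, 0 of the 10, and the adjusted p of Ephx1 was 0.515. With an intensity trend and robust variance 2 of the 10 had an unadjusted p under 0.05 in limma, Ephx1 and Plk2 (0.0426 for Plk2). Without PI replicate 1 there were also 2, Ephx1 and Trp53inp1, against 1 with the reported settings. The shares of all genes at that unadjusted p are not given for these settings. The cause of these changes was not tested. Without detection calls in the tables, dim genes cannot be told from absent ones.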

Other observations

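Several genes of the written lists lay only on clusters shared with another gene and were left out of every count above. The cluster annotated to Gadd45a, a p53-induced stress gene, and E230016M11Rik had levels of 7.72, 7.82 and 7.91 in PI and 7.59, 7.81 and 7.62 in AI, with overlap. The cluster of Ddb2 and Acp2 differed by -0.03, that of Ccnb1 and Gm5593 by 0.00 and the pair of clusters of Btg3 and Gm7334 by 0.07 each.

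Relatives of the 10 genes were compared as a list of 13 measured genes, of which 0 passed in limma and 1 had an unadjusted p under 0.05. That gene was Phlda2, an imprinted pleckstrin-homology relative of Phlda3, with 6.44, 6.63 and 6.18 in PI and 7.10, 7.20 and 6.87 in AI. Its groups did not overlap, and its difference of -0.64 (interval -0.96 to -0.32, limma adjusted p = 0.389) was larger than that of any of the 10 p53 targets. It ranged from -0.74 to -0.52 over 16 settings, with a smallest adjusted p of 0.0966. The difference between Phlda2 and Phlda3, at -0.64 and -0.09, was not itself tested. Btg4 had a value of -0.17 and Zmat2 of 0.12.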
